A study of Mus musculus with 4 samples.

Results

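The genes of CTCF, its paralogue CTCFL, the cohesin ring and the factors that load or release cohesin were examined by RNA-seq of mESCs with wild-type (WT_CTCF) or mutant CTCF (MUT_CTCF). The 10 genes (Ctcf, Ctcfl, Smc1a, Smc3, Rad21, Stag1, Stag2, Nipbl, Wapal and Pds5a) were chosen by symbol, and all 10 were found among the 37620 genes of the count table. Wapal is the older symbol of Wapl. Both lines derive from CTCF-EGFP-AID mESCs, mouse embryonic stem cells in which endogenous CTCF carries a degron tag and is degraded with 0.5 mM auxin. WT_CTCF mESCs were transduced with a vector for wild-type CTCF, and MUT_CTCF mESCs with a vector for T668A CTCF, which lacks the threonine that carries O-GlcNAc. Auxin lasted 48 h where its effect on CTCF was shown, and no duration is named for the RNA-seq. Each line is a clone picked for a CTCF level close to the endogenous level, so a difference between the lines and a difference between clones cannot be told apart. There were 2 libraries per line, with 40977464 and 40824156 counts in WT_CTCF and 40899401 and 40524694 counts in MUT_CTCF mESCs. The study's methods call the replicates of each line biological, without saying how they were grown, and p-values measure the spread between these libraries.

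CTCF is a zinc finger protein that binds an oriented DNA motif and stops cohesin as it extrudes chromatin loops. Cohesin is a ring of SMC1A, SMC3 and the kleisin RAD21, to which STAG1 or STAG2 is bound. NIPBL, with MAU2, loads cohesin and drives its ATPase, while WAPL, with PDS5A or PDS5B, releases it from DNA. In mESCs these proteins hold the domains and enhancer contacts of pluripotency genes, and most of them are essential for cell division. The libraries carried the markers of the labelled cell type. All 10 mESC markers were detected, at levels from 66.3 to 1553 RPKM (normalized CPM per kilobase of exon), and their summed level was 3990.2 and 3889 RPKM in WT_CTCF, against 3828 and 3822 RPKM in MUT_CTCF mESCs. Among these markers, edgeR's quasi-likelihood test called Sox2 higher and Dppa5a and Utf1 lower, or 3 of 10, against 3.17% of the 16264 tested genes, and 6 of 10 had an unadjusted p under 0.05, against 15.3%. The log2 fold changes of MUT_CTCF over WT_CTCF were small, at 0.095 for Sox2, -0.099 for Dppa5a and -0.21 for Utf1. These markers are abundant, whereas the shares cover tested genes of every level.

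The altered residue lies in the C-terminal part of CTCF, in exon 11 of 12 of Ctcf, and the reference genome around its codon is shown here because this codon is what the vectors of the 2 lines were designed to differ in. The stretch is chr8:108204120-108204149 of mm9, plus strand, with codon 668 (ACC, threonine) in capitals. It is reference sequence and was not read from the libraries.
Ctcf codon 668: cgacctcctggaagaACCaaccagcccaaa

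Ctcf (chr8:108160468-108206822, plus strand) had 18302 and 18669 normalized counts (counts scaled to the mean library) in WT_CTCF, against 18791 and 19325 normalized counts in MUT_CTCF mESCs. The MUT_CTCF libraries were the 2 highest, but the gap between the lines was smaller than the spread within either line. The log2 fold change of MUT_CTCF over WT_CTCF was 0.044 (standard error, SE, 0.028, adjusted p = 0.499 in edgeR's quasi-likelihood test with Benjamini-Hochberg adjustment over all tested genes), and 0.022 to 0.064 with a library left out. Its 95% interval reached from -0.013 to 0.10, which is a difference of -0.895% to 7.25%. Counts per gene do not separate the tagged endogenous transcript from the vector transcript, so this is the sum of both. Ctcfl (chr2:172919110-172945026, minus strand), whose product is known from the male germ line, had 130.2 and 101 normalized counts in WT_CTCF and 121 and 121 in MUT_CTCF mESCs. The libraries of the lines overlapped, with a log2 fold change of 0.061 (95% interval -0.42 to 0.55), which was -0.11 without WT_CTCF replicate 2. Exons of Ctcfl overlap those of 1300015D01Rik on the other strand over 171 bp, and whether counting used strand is not stated, so reads of the pair cannot be told apart.

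Across all 10 genes, 0 were called at an adjusted p under 0.05 by edgeR's quasi-likelihood test, against 3.17% of the 16264 tested genes. DESeq2 and edgeR's exact test also called 0. At an unadjusted p under 0.05 there were 2 (Smc1a and Wapal), where 15.3% of all tested genes reached that level. At the criterion of the study's methods, which asks for a fold change above 2 and an unadjusted p under 0.05, the count was again 0, against 1.30% of all tested genes. The log2 fold changes ranged from -0.19 to 0.26, with a median of 0.042, against a median of 0.0034 over all tested genes, and 6 were above 0 and 4 below. The libraries of the lines did not overlap for 6 of the 10 genes, against 44.7% of all tested genes. MUT_CTCF was higher for 3 of them (Ctcf, Stag2 and Nipbl) and lower for the other 3 (Rad21, Smc1a and Wapal), against 22.3% of all tested genes in each direction. Scaled by library size only, Rad21 overlapped and 5 of the 10 genes did not, against 44.4% of all tested genes.

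**Figure D1:**
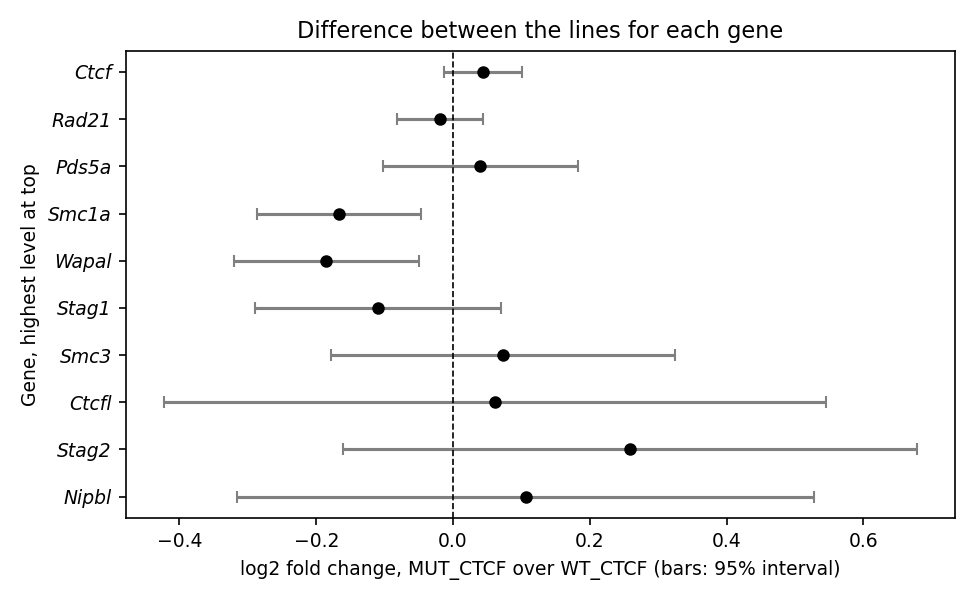
Log2 fold change of MUT_CTCF over WT_CTCF mESCs for each of the 10 genes (points) with its 95% interval in edgeR's quasi-likelihood fit (bars), ordered by level from top to bottom. The interval is narrow for the abundant Ctcf (-0.013 to 0.10) and wide for genes of low level such as Stag2 (-0.16 to 0.68), and the intervals of Smc1a and Wapal lie below 0 although neither passed after adjustment.

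Among the genes of the ring, Rad21 was the most precisely measured. Rad21 (chr15:51794151-51823306, minus strand), the kleisin that closes the ring and is cut by separase in anaphase, had 12429.7 and 12492 normalized counts in WT_CTCF and 12301 and 12296 in MUT_CTCF mESCs. With TMM factors the MUT_CTCF libraries lay just below the WT_CTCF libraries, with a log2 fold change of -0.019 (SE 0.031, adjusted p = 0.853 in edgeR's quasi-likelihood test with Benjamini-Hochberg adjustment) and a 95% interval of -5.52% to 3.09%. With library size only the lines overlapped (302.8 and 305.3 CPM in WT_CTCF, 303.4 and 302.0 CPM in MUT_CTCF), and the log2 fold change was -0.0066. Smc1a (chrX:148450971-148497237, plus strand), an ATPase arm of the ring, had 2334 and 2291 normalized counts in WT_CTCF and 2102 and 2019 in MUT_CTCF mESCs. Both MUT_CTCF libraries were below both WT_CTCF libraries, and the gap exceeded the spread within either line. The log2 fold change was -0.17 (SE 0.060, 95% interval -0.29 to -0.046), which did not pass over all tested genes (adjusted p = 0.129, same test). Smc3 (chr19:53674886-53720323, plus strand), the other ATPase arm, had 394 and 442 normalized counts in WT_CTCF and 446 and 433 in MUT_CTCF mESCs. These overlapped, and the log2 fold change of 0.073 (SE 0.13, 95% interval -0.18 to 0.32) was -0.0084 without WT_CTCF replicate 1.

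Neither of the alternative STAG subunits passed. Stag1 (chr9:100498217-100858964, plus strand) had 929 and 1018 normalized counts in WT_CTCF and 964 and 841 in MUT_CTCF mESCs, with overlapping libraries. Its log2 fold change of -0.11 (SE 0.090, 95% interval -0.29 to 0.069) moved with single libraries. It was -0.21 and -0.017 when MUT_CTCF replicate 1 or 2 was left out, and -0.17 and -0.044 when WT_CTCF replicate 1 or 2 was. Stag2 (chrX:39502494-39630362, plus strand), an X-linked gene often mutated in cancer, had 139 and 134 normalized counts in WT_CTCF and 172 and 155 in MUT_CTCF mESCs. The libraries did not overlap, and the log2 fold change of 0.26 was the largest of the 10 genes in either direction (SE 0.21, adjusted p = 0.629 in edgeR's quasi-likelihood test with Benjamini-Hochberg adjustment). At this depth the 95% interval reached from -10.6% to 60.1%, and counting error alone is 8.16% of the mean, so a moderate difference in Stag2 was not detectable.

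Of the regulators, Nipbl (chr15:8241225-8394463, minus strand) had 137 and 148 normalized counts in WT_CTCF and 155 and 153 in MUT_CTCF mESCs. The lines did not overlap, by fewer than 10 normalized counts, and the log2 fold change was 0.11 (SE 0.21, 95% interval -0.32 to 0.53). It was 0.051 when WT_CTCF replicate 1 was left out and 0.16 when WT_CTCF replicate 2 was. Wapal (chr14:35487114-35561169, plus strand), which encodes the release factor WAPL, had 1747 and 1779 normalized counts in WT_CTCF and 1591 and 1510.2 in MUT_CTCF mESCs. Both MUT_CTCF libraries were lower, and the log2 fold change of -0.19 (SE 0.068, 95% interval -0.32 to -0.049) did not pass (adjusted p = 0.137 in edgeR's quasi-likelihood test with Benjamini-Hochberg adjustment). Pds5a (chr5:66006499-66089095, minus strand) had 1512 and 1659 normalized counts in WT_CTCF and 1718 and 1542 in MUT_CTCF mESCs. Its libraries overlapped, and the log2 fold change of 0.040 (95% interval -0.10 to 0.18) turned to -0.025 when WT_CTCF replicate 1 was left out and to -0.040 when MUT_CTCF replicate 1 was.

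Levels of different genes were compared per length, as RPKM over the union of annotated exons. In WT_CTCF mESCs, Ctcf was at 93.3 ± 1.31 RPKM (SD, n = 2) and Rad21 at 84.8 ± 0.301 RPKM, above all the others. Every level of Ctcf given here is the sum of the tagged endogenous and the vector transcript. Smc1a (9.83 ± 0.127), Pds5a (9.34 ± 0.610) and Wapal (6.53 ± 0.0848 RPKM) formed a middle group in WT_CTCF mESCs. Stag1 (2.33 ± 0.150), Smc3 (1.85 ± 0.151) and Ctcfl (0.882 ± 0.156 RPKM) were lower, and Stag2 (0.405 ± 0.0103) and Nipbl (0.397 ± 0.0219 RPKM) were lowest. The order was the same in MUT_CTCF mESCs, except that Pds5a (9.61 ± 0.732 RPKM) came before Smc1a (8.76 ± 0.250 RPKM). Neighbours in this order whose libraries overlapped were Smc1a with Pds5a and Stag2 with Nipbl, in WT_CTCF mESCs, while in MUT_CTCF mESCs the libraries of all neighbours were separate. The mean level of Ctcf over the 4 libraries was 229.7 times that of Nipbl, and 295 times with the length of the longest transcript in place of the exon union. That choice placed Smc1a before Pds5a and moved Stag1 most, from 2.24 to 3.72 RPKM.

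**Figure D2:**
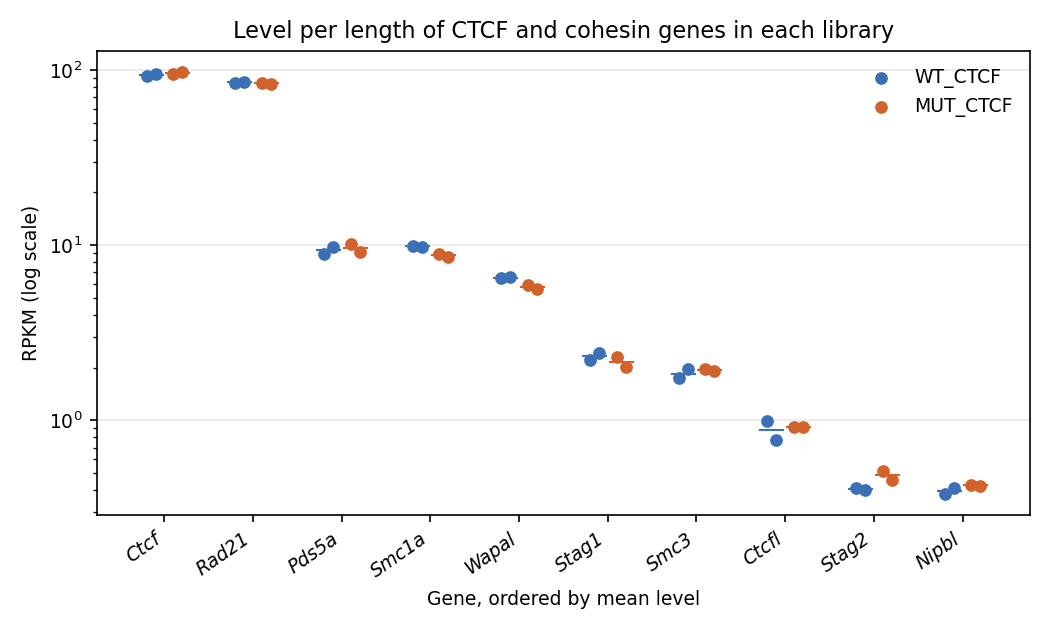
Level per length (RPKM, log scale) of each of the 10 genes in the 2 WT_CTCF and the 2 MUT_CTCF libraries (points), with the mean of each line (horizontal bars). Ctcf and Rad21 lie near 100 RPKM and Stag2 and Nipbl near 0.4 RPKM, while Smc1a and Pds5a lie close together and change places between the lines.

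The proteins of the ring act in equal parts, yet their transcripts were far apart. Averaged over the 4 libraries, Rad21 was 44.4 times Smc3 and 9.06 times Smc1a in RPKM. Among 14659 tested coding genes ranked by RPKM, Ctcf stood at percentile 95.7 and Rad21 at 95.1, whereas Smc1a stood at 63.3, Smc3 at 35.3, Stag2 at 16.8 and Nipbl at 15.9. Genes of the related complexes condensin and SMC5/6 were set beside them after these values were seen. Their SMC ATPase genes were under Smc1a and Smc3, with Smc2 at 1.60, Smc4 at 0.750, Smc5 at 1.30 and Smc6 at 1.01 RPKM. Ncapd2 (110.2) and Ncaph2 (58.7 RPKM), the most abundant condensin genes, and Nsmce4a (44.9) and Nsmce1 (39.8 RPKM), those of SMC5/6, were above their SMC partners. Of the remaining genes, Ncaph (30.0), Ncapd3 (12.7), Ndnl2 (12.1) and Nsmce2 (8.68 RPKM) lay between. Fam178a (3.76), Ncapg2 (3.57) and Ncapg (2.47 RPKM) were closer to the SMC genes, and Ankrd32 was at 0.336 RPKM.

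Base composition was set beside these levels, and its part in them was not tested. The longest coding transcript of Rad21 holds 45.1% GC, and those of Smc3, Nipbl and Stag2 hold 42.3%, 42.9% and 38.1%. Those of Wapal and Stag1 hold 41.4% and 41.9%. The levels of Wapal, Stag1 and Nipbl were 6.13, 2.24 and 0.412 RPKM. When the coding genes were split into 5 equal groups by GC content, the lowest group had a median of 2.66 RPKM, against 4.98 to 5.79 RPKM in the others. In that lowest group lay 5 of the 6 SMC genes of the 3 complexes, all 5 under its median level, and 6 of the 13 other subunits, with 3 under it (Fam178a and Ankrd32, which associate with SMC5/6, were not counted among the 13, and hold 43.1% and 37.5% GC). The 7 other subunits outside it had from 8.68 to 110.2 RPKM. Of the 10 genes examined, 7 lay in the lowest group and 4 of these under its median (Stag1, Smc3, Stag2 and Nipbl). Rad21 (84.2 RPKM) lay at the upper edge of the lowest group, and Ctcfl, at 52.9% GC, had 0.901 RPKM. Across the 14659 genes, which are not independent replicates and share the same 4 libraries, Spearman's rho between GC content and RPKM was 0.106.

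**Figure D3:**
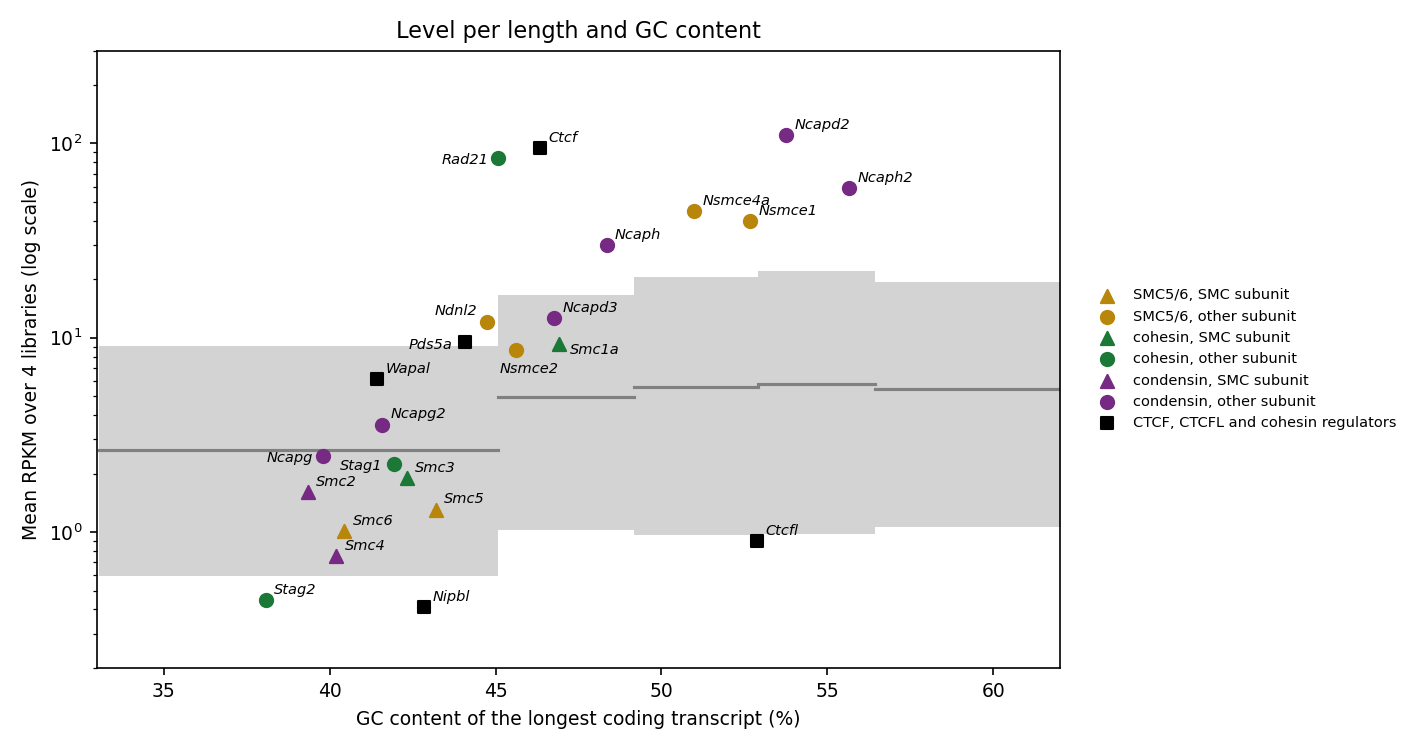
Mean RPKM over the 4 libraries (log scale) against GC content of the longest coding transcript for subunits of cohesin, condensin and SMC5/6 (triangles, SMC subunits; circles, other subunits) and for Ctcf, Ctcfl and cohesin regulators (squares). Grey lines and bands give the median and the middle 50% of all tested coding genes in each of 5 groups by GC content, and the triangles other than Smc1a lie at or under 1.90 RPKM.

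Ratios of partner or alternative genes were formed within each library, so that a scaling factor cancels. Stag2 to Stag1 per length was 0.186 and 0.164 in WT_CTCF, against 0.222 and 0.228 in MUT_CTCF mESCs. The MUT_CTCF libraries were higher, by a factor of 1.29 between the means. Nipbl to Wapal, loader over release factor, was 0.0590 and 0.0626 in WT_CTCF and 0.0730 and 0.0760 in MUT_CTCF mESCs, a factor of 1.23. Smc3 to Smc1a went from 0.188 ± 0.0178 to 0.222 ± 0.00167 (SD, n = 2) and again did not overlap. Pds5a to Pds5b (4.87 ± 0.128 and 5.13 ± 0.157) and Ctcf to Rad21 (1.10 ± 0.0115 and 1.15 ± 0.0231) were separate as well. Rad21 to Smc3 (46.0 ± 3.61 and 43.1 ± 0.891) and Mau2 to Nipbl (59.8 ± 4.98 and 54.2 ± 3.52) overlapped. With a library left out, the log2 change of Rad21 to Smc3 (-0.094) ranged from -0.17 to -0.014. That of Mau2 to Nipbl (-0.14) ranged from -0.23 to -0.056, and that of Pds5a to Pds5b (0.075) from 0.044 to 0.11. Without WT_CTCF replicate 2 or MUT_CTCF replicate 2, all 7 ratios were separate. Leaving out a library can only keep or raise this count, so it is no measure of stability. With 2 libraries per line, the smallest two-sided p of an exact permutation test is 0.333, and the 5 separate ratios had that value (adjusted p = 0.467 over the 7 ratios), so none could pass. The ratios share genes with one another and with the fold changes above and are not further evidence.

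Other cohesin genes were read from lists. Of 4 meiotic subunits 3 were tested, and 1 was called higher, against 1.56% of all tested genes. Stag3 (chr5:138721468-138753621, plus strand), the STAG subunit of meiotic cohesin, had 2957 and 3075 normalized counts in WT_CTCF and 3283 and 3559.99 in MUT_CTCF mESCs. The lines did not overlap, and Stag3 rose by 0.18 on the log2 scale (SE 0.052, adjusted p = 0.0363 in edgeR's quasi-likelihood test with Benjamini-Hochberg adjustment). The call was lost with DESeq2, without a filter on low counts and when any single library was left out, with adjusted p from 0.0145 to 0.548 over its 11 alternatives. The log2 fold change was 0.18 with DESeq2 and without a filter, and 0.12 to 0.24 with a library left out. At 13.8 RPKM over the 4 libraries, Stag3 was above Stag1 (2.24 RPKM) and Stag2 (0.445 RPKM). The longest coding transcripts of Stag3 and Rec8 hold 49.6% and 56.7% GC, against 41.9% for Stag1 and 38.1% for Stag2. The part of base composition in these levels was not tested. Rec8, the meiotic kleisin, was at 19.6 RPKM with a log2 fold change of 0.026 (SE 0.060; 0.0096 to 0.040 with a library left out), while Smc1b was at 0.152 RPKM and Rad21l had at most 3 counts in a library. The median of the 3 tested genes was 0.026.

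Markers of other cell types were read beside these values. Primitive endoderm markers summed to 3.52 and 3.66 RPKM in WT_CTCF and to 4.01 and 5.08 RPKM in MUT_CTCF mESCs. Of 8 markers 6 were tested, 0 were called by edgeR, and Gata4 was the most abundant (1.11 RPKM). There were 2 at an unadjusted p under 0.05 in edgeR (Gata6 and Sox17, named after their values were seen, both higher). Of the 6 tested markers, 5 were above 0 and 1 below, Dab2, at a log2 fold change of -0.21 with overlapping libraries. Foxa2, which was not tested, had 5 and 7 counts in WT_CTCF and 2 and 0 in MUT_CTCF mESCs. Sox7, also not tested, had 1 and 0 counts in WT_CTCF and 0 and 4 in MUT_CTCF mESCs. Neural progenitor markers summed to 15.8 and 16.2 RPKM in WT_CTCF and to 17.9 and 18.0 RPKM in MUT_CTCF mESCs, with 3 of 8 tested, Msi1 called higher and Nes the most abundant (10.2 RPKM). Whether these sums have a part in the value of Stag3 was not tested. Fibroblast markers summed to 13.9 and 14.7 RPKM in WT_CTCF and to 15.1 and 16.6 RPKM in MUT_CTCF mESCs, with 5 of 10 tested, 0 called and Thy1 the most abundant (9.52 RPKM). The 1 fibroblast marker at an unadjusted p under 0.05 was Col3a1, also named after its values were seen. It was lower in MUT_CTCF mESCs, at a mean of 8.46 against 24.5 normalized counts with no overlap (log2 fold change -1.52, adjusted p = 0.288 in edgeR's quasi-likelihood test), and Col1a2 was at -0.19 with overlapping libraries. The other 3 tested fibroblast markers were above 0, Thy1 at 0.20 and Col1a1 at 0.15 without overlap of the lines and Pdgfrb at 0.027 with overlap. Acta2, which was not tested, had 1 and 2 counts in WT_CTCF and 8 and 17 in MUT_CTCF mESCs. Over all tested genes, 3.17% were called, 15.3% had an unadjusted p under 0.05 and 44.7% had no overlap of the lines. Lum and S100a4 had 0 counts in all 4 libraries, which allows up to 3 counts each, or 0.0739 CPM in the library with the highest limit, for counting error only.

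Of 15 other regulators of cohesin, all tested, 0 were called by edgeR's quasi-likelihood test, against 3.17% of all tested genes, and 3 had an unadjusted p under 0.05, against 15.3%. Their median log2 fold change was -0.030, and 7 were above 0. Mau2, the partner of NIPBL, had 5295 and 5088 normalized counts in WT_CTCF and 4872 and 5274 in MUT_CTCF mESCs. The libraries overlapped, with a log2 fold change of -0.033 (SE 0.044). At 23.4 RPKM its level was far above that of Nipbl. Pds5b, the paralogue of Pds5a, was at 1.90 RPKM with a log2 fold change of -0.036 (SE 0.098). Espl1, which encodes separase, was at 55.9 RPKM with a log2 fold change of 0.041 (SE 0.030). Cdca5, which encodes sororin, was at 55.4 RPKM with -0.10 (SE 0.045, adjusted p = 0.267 in edgeR's quasi-likelihood test with Benjamini-Hochberg adjustment), and from -0.16 to -0.040 with a library left out. Esco2 (0.40, adjusted p = 0.259) and Gsg2 (0.12, adjusted p = 0.288, same test), named after their values were seen, were the others at an unadjusted p under 0.05. Over these 15 genes and the 3 meiotic genes, DESeq2 called 0.

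Condensin and SMC5/6, the other SMC complexes, had 0 called genes of 8 and 8 tested by edgeR's quasi-likelihood test, and 0 at an unadjusted p under 0.05, against 3.17% and 15.3% of all tested genes. DESeq2 and edgeR's exact test called 0 as well. Median log2 fold changes were -0.0077 for condensin and -0.0066 for SMC5/6. Ncapd2 (0.018, SE 0.030) and Nsmce4a (-0.013, SE 0.043; -0.00072 with library size only) were their most abundant genes. Nsmce1 had a log2 fold change of -0.049 (SE 0.061), and from -0.10 to -0.0015 with a library left out. Ncaph2 had -0.015 (SE 0.034), and its exons overlap those of Sco2 on the other strand over 768 bp.

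CTCF partners and other looping factors held 2 called genes among 17 tested of 18, both lower in MUT_CTCF mESCs, against 1.61% of all tested genes. Npm1 (chr11:33052287-33063206), a nucleolar protein known to bind CTCF, had 47604 and 46316 normalized counts in WT_CTCF and 43096 and 40459 in MUT_CTCF mESCs. The lines did not overlap, and Npm1 fell by 0.17 on the log2 scale (SE 0.025, adjusted p = 3.83e-06 in edgeR's quasi-likelihood test with Benjamini-Hochberg adjustment). Npm1 has processed pseudogenes. Only uniquely mapped reads were counted, so reads that match a copy equally well would be left out of its count. Ddx5 (chr11:106641669-106650499), an RNA helicase found with CTCF, had 33383 and 33445 normalized counts in WT_CTCF and 31965 and 31067 in MUT_CTCF mESCs. Ddx5 fell by 0.084 (SE 0.025, adjusted p = 0.0435, same test), without overlap of the lines, and shares 185 bp of exon with other annotated features on its strand. The call of Npm1 was lost without a filter and without either MUT_CTCF library (adjusted p from 8.92e-11 to 0.398 over 11 alternatives). That of Ddx5 was kept in 3 of its 11 alternatives and lost in DESeq2, in edgeR's exact test, with library size only, without a filter and when any single library was left out (adjusted p from 0.0189 to 0.489). The log2 fold change of Npm1 was -0.17 without a filter and -0.21 to -0.13 with a library left out. That of Ddx5 was -0.085 in DESeq2, -0.084 in edgeR's exact test, -0.072 with library size only, -0.086 without a filter and -0.11 to -0.065 with a library left out. The median of the list was -0.022, with 7 of 17 above 0 and 6 at an unadjusted p under 0.05, against 15.3% of all tested genes. Parp1, next to Npm1 the most abundant at 333 RPKM, had a log2 fold change of -0.0042 (SE 0.022), which was 0.0082 with library size only. Yy2 had 0 counts in all 4 libraries. All 2867 bp of its exon lie within those of Mbtps2 on the same strand, so its level cannot be read from these counts.

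**Figure D4:**
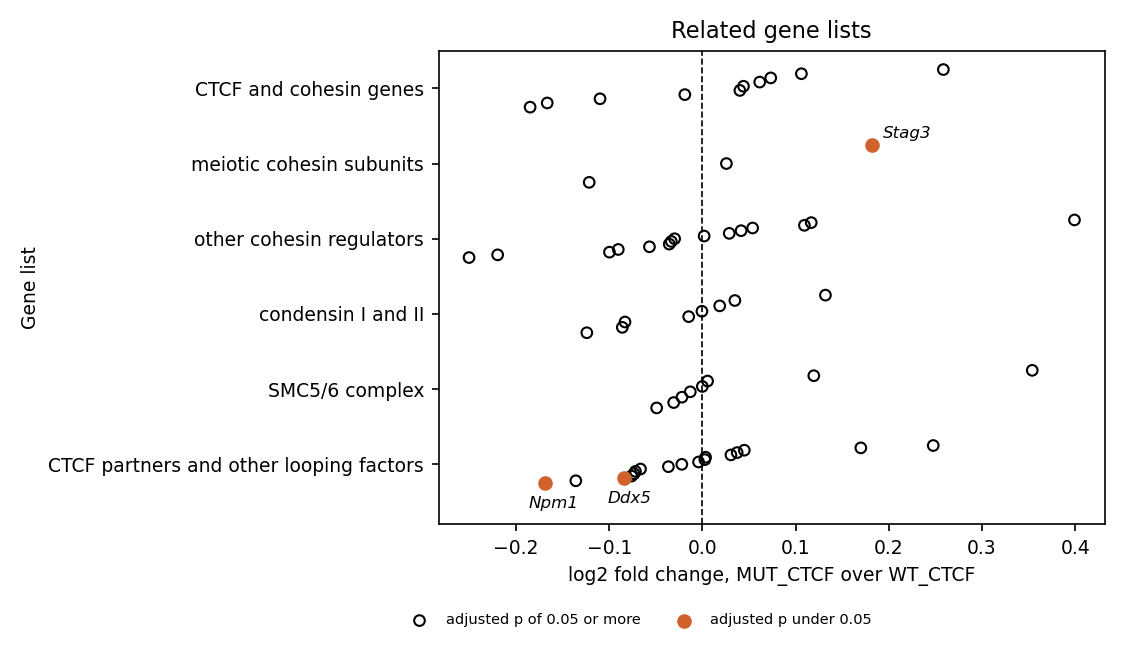
Log2 fold change of MUT_CTCF over WT_CTCF mESCs for each tested gene (circles) of 6 lists, with genes at an adjusted p under 0.05 filled. The filled genes are Stag3, which is higher, and Npm1 and Ddx5, which are lower, and the 10 CTCF and cohesin genes lie between -0.19 and 0.26.

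Over all 16264 tested genes, 515 were called, 253 higher and 262 lower in MUT_CTCF mESCs, and scaling by library size only gave 260 and 152. DESeq2 called 131 higher and 114 lower, and the study's criterion gave 154 and 58. Without WT_CTCF replicate 1 there were 130 higher and 63 lower, and without WT_CTCF replicate 2 there were 140 and 102. Without either MUT_CTCF library the count was 0 (1651 and 1585 genes at an unadjusted p under 0.05 without replicate 1 and replicate 2), and without a filter on low counts it was 29 (26 higher and 3 lower). Among 6460 other genes with a mean of at least 1000 normalized counts, those whose log2 CPM, centred on each gene's own mean over the 4 libraries, lay nearest to that of Ctcf were 2310014H01Rik (Euclidean distance 0.0060), Lonp1 (0.0081) and Ubr4 (0.0083). Their log2 fold changes were 0.049, 0.042 and 0.043, and none was called. Over only 4 libraries this likeness is a description, of pattern and not of level.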

How the data were processed

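The authors trimmed reads with Trim Galore 0.4.4, aligned them to mm9 with STAR, counted uniquely mapped reads per gene with HTSeq-count (HTSeq 0.9.1) and deposited the raw counts. The authors' own edgeR table (fold changes, mean expression, p-values and false discovery rates) was not used. The strand setting and gene annotation are not given in the sources used here. Names, places and lengths came from GENCODE M1 (mm9), which named 37205 of 37620 identifiers.

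Genes were filtered with filterByExpr (minimum count 10), scaled by TMM (factors 0.994 to 1.01) and tested with edgeR 4.0.16 (R 4.3.3) by glmQLFit and glmQLFTest on the line alone, with Benjamini-Hochberg adjustment over 16264 genes and calls at an adjusted p under 0.05. Standard errors are the log2 fold change over the root of F. Means ± SD cover 2 libraries. Scripts were tested on simulated data. Replicates of a line differed by more than counting error (chi-square per degree of freedom 3.65 and 4.33).

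The 10 genes and the 9 lists (meiotic cohesin, other cohesin regulators, condensin, SMC5/6, CTCF partners, and mESC, fibroblast, primitive endoderm and neural progenitor markers) were chosen with earlier results of these data known. Genes named by rule were the 10 genes, called genes of the first 5 lists, the 2 most abundant of each, the partners in the ratios and the 3 nearest to Ctcf. Other genes of the lists are named outside this rule, for their levels, as markers or after their values were seen. DESeq2 1.42.0, edgeR's exact test, other scaling, filters, gene length and call rule, and a replicate block were tried as alternatives. So was leaving out each library, where the lone library is assumed to vary like the other line.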

Additional observations from a re-analysis of the deposited data

How the results depend on the processing

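Of the 10 genes, 0 were called under any of the 12 alternatives, in edgeR and in DESeq2, with 0 to 3 at an unadjusted p under 0.05. Condensin and SMC5/6 genes stayed at 0 as well, also at an unadjusted p under 0.05. Ctcf kept its sign, with adjusted p from 0.340 to 0.864 over 11 alternatives. Smc1a (adjusted p from 0.0910 to 0.540) and Wapal (0.0974 to 0.550) kept their sign in all 11 and did not pass.

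The count over all tested genes, 515, was 245 with DESeq2, 29 without a filter, 212 at the study's criterion (27 shared with the 515) and 0 to 242 with a library left out. The 1 called cohesin gene outside the 10, Stag3, became 0 with DESeq2, 0 without a filter, 0 at the study's criterion and 0 to 0 with a library left out. The 2 called CTCF partners became 1 with DESeq2, 1 with edgeR's exact test, 1 with library size only, 0 without a filter, 0 at the study's criterion and 0 to 1 with a library left out. Beside these zeros, unadjusted p under 0.05 was met by 1 cohesin gene with DESeq2 and 2 without a filter, by 1 to 3 cohesin genes with a library left out, and by 5 CTCF partners without a filter and 4 without either MUT_CTCF library. The cause was not tested, other than that leaving out a library leaves fewer samples.

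Signs changed for genes that were not called. With a library left out, log2 fold changes ranged from -0.11 to 0.25 for Ctcfl, -0.0084 to 0.16 for Smc3, -0.040 to 0.11 for Pds5a, -0.093 to 0.023 for Mau2, -0.083 to 0.0085 for Pds5b, -0.037 to 0.071 for Ncapd2, -0.048 to 0.017 for Ncaph2 and -0.016 to 0.0058 for Parp1, which was 0.0082 with library size only. The ratio of the highest to the lowest level, 229.7, was 295 with the longest transcript as length.

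Deviations of equally numbered replicates correlated at -0.0192 across genes, so the numbers were not taken to pair the libraries. With the replicate number as a block, 698 genes were called in place of 515, and 0 of the 10 genes. Genes under 200 counts, such as Stag2, Nipbl and Ctcfl, are limited by depth.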
